A study of Mus musculus with 6 samples.

Results

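The genes described here code for 4 ligand and receptor systems first known from nerve guidance: the semaphorins and plexins, the ephrins and Eph receptors, the Slits and Robos, and the netrins and Unc5 receptors. They were taken from the gene table by symbol and by protein-coding biotype, with no measured value used, which gave 63 of the 41721 listed genes. The 63 are 20 semaphorins of classes 3 to 7, 9 plexins, 13 Eph receptors, 8 ephrins, 3 Slits, 4 Robos, 2 netrins and 4 Unc5 receptors. Their RNA was measured in MASMCs, which are smooth muscle cells of the mouse abdominal aorta kept in culture, from Pdk4fl/fl and Pdk4SMKO animals, with 3 libraries of each genotype. In Pdk4fl/fl mice loxP sites flank exons 4, 5 and 6 of both copies of Pdk4, which codes for pyruvate dehydrogenase kinase 4, an inhibitor of pyruvate entry into the mitochondrial citrate cycle. Pdk4SMKO mice carry in addition the transgene Myh11-icre/ERT2, a Cre recombinase driven by the smooth muscle myosin promoter and switched on by tamoxifen, so that deletion depends on which cells used this promoter when the drug was given. The methods state that both genotypes received tamoxifen, that cells came from 10-week-old mice and were used at passages 4 to 8, and that Ang II was given at 1 μM for 48 h, while the sample labels give Ang II without dose or time. All 6 cultures had Ang II, so no untreated level is known. The study calls the cultures biological replicates without saying which mice they came from, and p-values measure the spread between these cultures.

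Semaphorins are secreted or membrane-bound ligands. They are read by plexins, whose cytoplasmic part acts on small Ras-family GTPases, and most class 3 semaphorins need a neuropilin beside the plexin. Ephrins are held on the cell surface, by a lipid anchor in the A class and by a transmembrane segment in the B class, and touch Eph receptor tyrosine kinases on neighbouring cells, so that signals run into both cells. Slits act through Robos, and netrins through Dcc, neogenin and the Unc5 receptors. In vessels these systems sort and position cells: ephrin-B2 and EphB4 mark the arterial and venous sides, and plexin D1 steers growing vessels away from Sema3e.

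Libraries held 16526044 to 22481670 counted reads, and a count of 3, taken as the floor of detection, was worth 0.132 to 0.227 CPM (counts divided by a TMM-adjusted library total). Pdk4 had 570, 639 and 421 counts in the Pdk4fl/fl libraries and 110, 182 and 141 in the Pdk4SMKO libraries, a log2 fold change of -2.34 ± 0.22 (SE, adjusted p = 4.5e-06). Log2 fold changes throughout are Pdk4SMKO over Pdk4fl/fl, with the standard error after ±. Xist, the RNA of the inactive X chromosome, had 3, 4 and 5 against 610, 347 and 321 counts. The methods describe male mice throughout and state that the Myh11-Cre transgene lies on the Y chromosome, so that only males inherit it. The Xist counts of the Pdk4SMKO libraries are thus at odds with the stated genotype as well as the stated sex, and their source was not tested. Over all genes tested, 26.5% were lower and 32.8% higher past the threshold given below, shares to set beside each marker list. Of the 10 smooth muscle markers, 3 were lower (30%) and 5 higher (50%). Their summed level was 832 to 864 CPM in Pdk4fl/fl and 758 to 1010 CPM in Pdk4SMKO. The 3 lower were Tagln (-2.26 ± 0.32), Smtn (-2.28 ± 0.19) and Cnn1 (-1.50 ± 0.48). Among the higher, Acta2 had means of 233 and 701 CPM, and Myh11 had only 8, 10 and 10 against 62, 44 and 46 counts. Of 8 mesothelial markers 7 were tested and all 7 were higher (summed level 74.2 to 99.99 CPM against 723 to 1325 CPM, Krt18 at 0, 0 and 1 counts in Pdk4fl/fl). Of 8 fibroblast markers 7 were tested, with 4 higher and 1 lower, or 57.1% and 14.3% (143 to 174 against 1326 to 2779 CPM, Tcf21 at 3 counts or fewer in every library). Of 8 macrophage markers 6 were tested, with 5 higher and 1 lower, or 83.3% and 16.7% (21.4 to 38.2 against 9.86 to 31.1 CPM, with Adgre1, C1qa, C1qb and Tyrobp at 0 in Pdk4fl/fl). The 1 lower was Cd68, at 568, 629 and 281 against 155, 63 and 60 counts. Of 8 endothelial markers 3 were tested and all 3 were lower (17.4 to 26.3 against 2.94 to 5.66 CPM, Cdh5, Emcn and Tie1 at 2 counts or fewer). Of 8 Schwann and neural markers 3 were tested, with 1 higher, or 33.3% (62.4 to 72.7 against 31.7 to 47.4 CPM, Foxd3 at 1 count or fewer). These shifts move with genotype, as do all results below. Their part in the guidance genes was not tested, and in bulk RNA fewer cells of a type and less RNA per cell cannot be told apart.

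The guidance genes took up more of the RNA in Pdk4SMKO cells. They made up 0.163%, 0.147% and 0.105% of all counts in the Pdk4fl/fl libraries and 0.452%, 0.461% and 0.414% in the Pdk4SMKO libraries, with no overlap. Of the 63 genes, 48 passed the filter on low counts and were tested with edgeR's quasi-likelihood test across 14085 genes, a gene being called at an adjusted p under 0.05 with a fold change of 2 or more. Among the 48, 27 were higher in Pdk4SMKO cells (56.25%, against 32.8% of all genes tested) and 9 were lower (18.75%, against 26.5% of all genes tested), while 12 were not called. For any gene, counts in 1 genotype alone can pass the filter, which favours a call in that direction. Where every library had to hold at least 10 counts, 20 of 38 guidance genes were higher and 7 lower. Among all 11301 genes that met this limit, 3165 were higher and 2785 lower. The median log2 fold change was 1.50 over the 48 and 0.12 over all genes tested. The 3 libraries of each genotype did not overlap for 39 of the 48 (81.25%), near the 81.8% of all genes tested. An exact permutation test of 3 against 3 cultures gives p = 0.1 for every gene without overlap, the smallest it can give. The 15 untested genes were too thinly counted at this depth: Epha6, Ephb1 and Robo4 had 0 counts in every library, and the others reached at most 18 counts in any library.

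**Figure D1:**
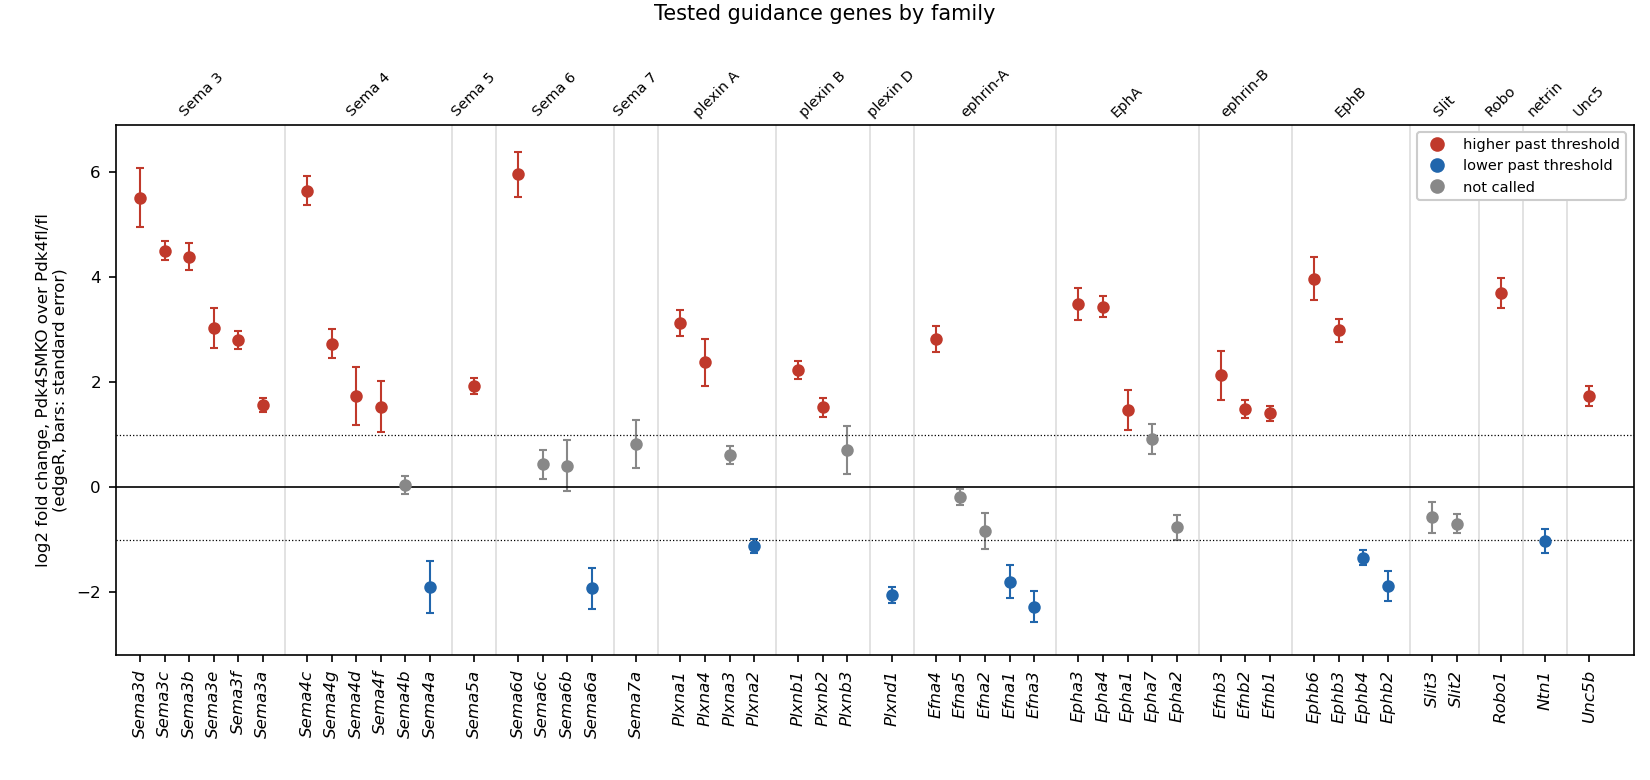
Log2 fold change (Pdk4SMKO over Pdk4fl/fl, edgeR) of the 48 tested guidance genes, grouped by family, with the standard error as bars and dotted lines at a fold change of 2. The class 3 semaphorins lie between 1.56 and 5.51, all above the dotted line. The class 4 and class 6 semaphorins, A plexins, EphA receptors, EphB receptors and A ephrins hold genes on both sides of 0.

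The class 3 semaphorins, the secreted class, rose together. All 6 of the tested members were higher in Pdk4SMKO cells, against 32.8% of all genes tested. The summed level of the class per transcript length went from 8.41 ± 0.85 to 68.6 ± 6.45 FPKM (SD, n = 3). FPKM is CPM divided by the gene length in kilobases, from the lengths in the table. Sema3f, a neuropilin-2 ligand known for repelling endothelial and tumour cells, held most of this sum in both genotypes. It stood at 26.9, 31.6 and 22.4 CPM in Pdk4fl/fl and at 205, 205 and 153 CPM in Pdk4SMKO libraries (log2 fold change 2.80 ± 0.17, adjusted p = 2.6e-07). Sema3c, which guides cardiac neural crest cells into the outflow tract, was at 4.60, 6.31 and 4.01 CPM against 107, 111 and 124 CPM (4.50 ± 0.18, adjusted p = 2.5e-08). Its share of the summed class 3 FPKM grew from 8.21% to 23.5%. Sema3b, a ligand lost in several tumours, was at 1.20, 1.43 and 2.27 against 35.8, 38.3 and 27.3 CPM (4.39 ± 0.25, adjusted p = 1.6e-07).

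Sema3d and Sema3e also rose, but one Pdk4SMKO culture stood above the others. Sema3d, a regulator of endothelial migration in the embryo, had 10, 11 and 1 counts against 820, 261 and 325 counts, or 0.667, 0.604 and 0.0757 against 36.0, 13.0 and 15.9 CPM (5.51 ± 0.56, adjusted p = 7.8e-06). Sema3e, the ligand of plexin D1, had 2.13, 1.48 and 1.06 against 19.6, 8.41 and 10.5 CPM (3.03 ± 0.38, adjusted p = 3.9e-05). Pdk4SMKO replicate 1 was the highest for both. It also held the most mesothelial marker RNA, with 13885 counts of Msln against 5877 and 6686 in the other Pdk4SMKO libraries and 90 to 104 in Pdk4fl/fl. A link between these levels was not tested. Without Pdk4SMKO replicate 1 the log2 fold changes of Sema3d and Sema3e were 4.94 (adjusted p = 2.5e-06) and 2.60 (adjusted p = 2.9e-05). The body of Sema3d overlaps an unnamed processed pseudogene on the other strand (238, 257 and 293 against 109, 82 and 121 counts), and the sources used here do not say whether reads were counted by strand. Sema3a, the collapsing factor of growth cones, changed least of the 6, from 26.7, 23.1 and 27.6 to 71.7, 76.0 and 80.9 CPM (1.56 ± 0.13, adjusted p = 1.6e-06), and Sema3g, a ligand of arterial endothelium, stayed at 9 counts or fewer in every library. By the gene table, on the C57BL/6NJ assembly, Sema3d, Sema3a and Sema3e follow each other on chromosome 5 with gaps of 625 and 519 kb, and Sema3b and Sema3f lie 81.2 kb apart on chromosome 9.

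The receptors that read the class 3 ligands moved in opposite directions. Plxna1, a main signalling partner of the neuropilins, rose from 64.0, 47.6 and 29.8 to 439, 416 and 378 CPM (3.12 ± 0.24, adjusted p = 1.2e-06), and every Pdk4SMKO library was above every Pdk4fl/fl library. Plxna2, its paralog, fell from 74.3, 66.2 and 58.4 to 30.3, 30.5 and 30.9 CPM (-1.12 ± 0.13, adjusted p = 2.0e-05). This call missed the fold limit with upper-quartile factors (-0.91) and with library totals alone (-0.52). It was also lost with glmTreat, which tests against a fold change of 2 (adjusted p = 0.128). Plxna1 therefore went from 48.1 ± 6.10% to 91.3% of the summed A plexin FPKM and Plxna2 from 38.2 ± 5.38% to 3.68%. Plxna4 rose from a low level (22, 27 and 4 against 170, 112 and 88 counts, 2.37 ± 0.45, adjusted p = 0.00072), and X-linked Plxna3 was not called (0.61 ± 0.18, adjusted p = 0.00894). Plxnd1, which binds Sema3e without a neuropilin, fell from 145, 127 and 100 to 32.1, 29.3 and 28.2 CPM (-2.05 ± 0.15, adjusted p = 9.5e-07), so that the ligand was higher and the receptor lower in the same cultures. The co-receptors, from a list beside the 63 genes, also divided: Nrp1 had 772, 778 and 499 against 1782, 2549 and 2481 counts (1.31 ± 0.20, adjusted p = 1.4e-04) and Nrp2 had 726, 663 and 449 against 326, 418 and 298 counts (-1.26 ± 0.20, adjusted p = 1.8e-04).

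**Figure D2:**
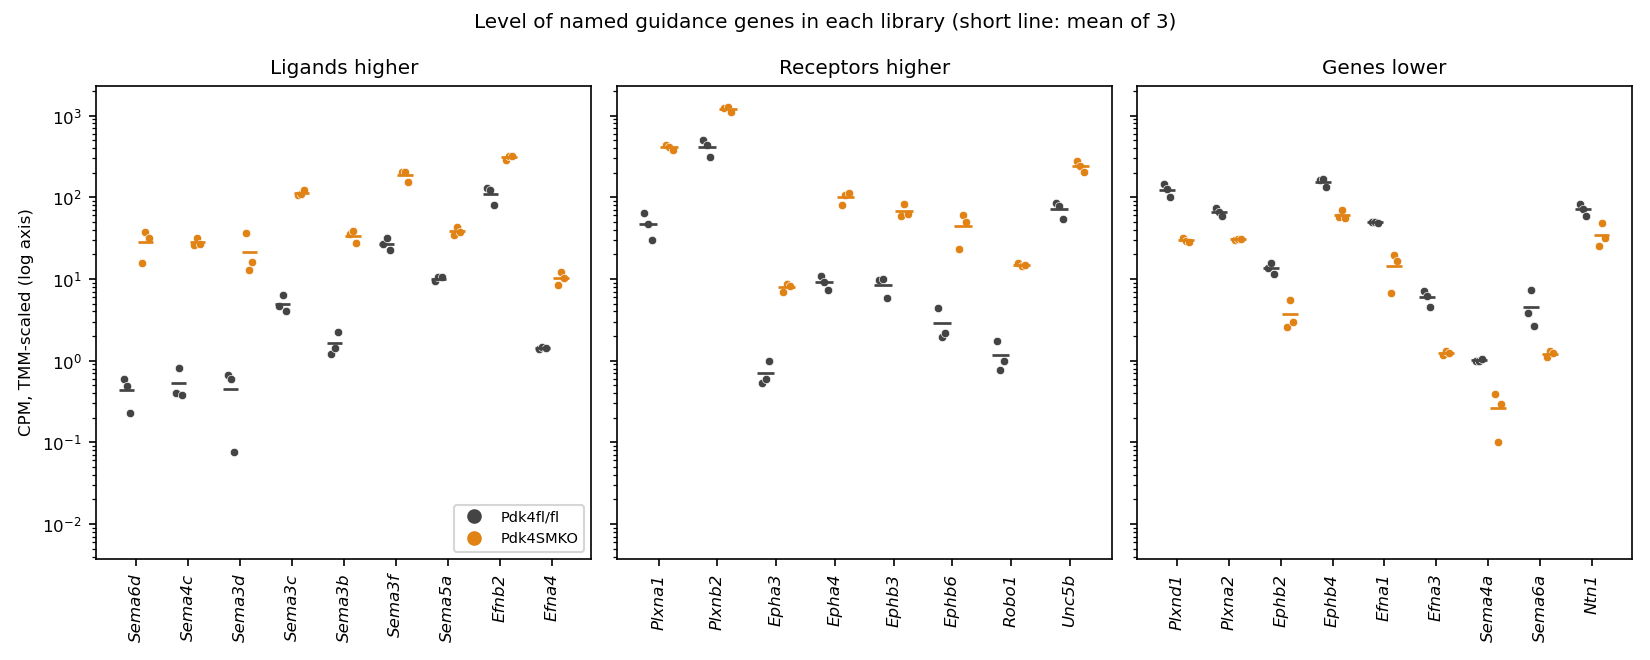
CPM (log axis) of named guidance genes in each of the 3 Pdk4fl/fl and 3 Pdk4SMKO libraries, each point being 1 library and each short line the mean. In the first panel Sema3d spans 13.0 to 36.0 CPM in Pdk4SMKO libraries, while Sema4c spans 25.7 to 31.7 CPM. No gene drawn has overlapping genotypes, but many of them were picked in part for this.

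The transmembrane semaphorins of class 4 act mostly through B plexins, and both sides were higher in part. Plxnb2, the best represented of all 63 genes per length, was at 495, 441 and 309 CPM in Pdk4fl/fl and at 1226, 1254 and 1091 CPM in Pdk4SMKO libraries (1.52 ± 0.18, adjusted p = 2.1e-05), or 58.7 ± 13.5 against 168 ± 12.3 FPKM (SD, n = 3). Plxnb1, the Sema4d receptor that acts on RhoA, rose from 18.9, 21.4 and 13.8 to 79.5, 91.1 and 83.4 CPM (2.23 ± 0.17, adjusted p = 9.8e-07), and Plxnb3, on the X chromosome, overlapped between genotypes (0.70 ± 0.45, adjusted p = 0.176). Among the ligands, Sema4c, a ligand of plexin B2, went from 6, 15 and 5 counts to 586, 637 and 549 counts (5.65 ± 0.27, adjusted p = 5.8e-08), from near the floor to 6.12 ± 0.69 FPKM (SD, n = 3), beside 5.02 ± 0.50 FPKM for Sema4b. Sema4b itself did not pass the test, with 30.8, 29.0 and 20.4 against 27.9, 30.2 and 24.7 CPM (0.04 ± 0.17, adjusted p = 0.827). Sema4b held 73.7 ± 6.44% of the class 4 FPKM in Pdk4fl/fl cells, and in Pdk4SMKO cells Sema4c held 34.8%, Sema4b 28.5% and Sema4g 24.2%. Sema4g rose as well (3.33, 2.42 and 3.63 against 14.0, 21.5 and 26.5 CPM, 2.73 ± 0.28, adjusted p = 7.8e-06).

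The calls for Sema4d and Sema4f rested on Pdk4SMKO replicate 1. Sema4d, made by T cells, platelets and macrophages, had 5, 8 and 5 against 51, 14 and 19 counts (1.73 ± 0.55, adjusted p = 0.0141), and without that library the log2 fold change was 1.07 (adjusted p = 0.0657). Sema4f had 55, 53 and 56 against 448, 129 and 102 counts (1.54 ± 0.48, adjusted p = 0.0131), which became 0.68 (adjusted p = 0.0424) without it. Macrophage markers were also highest among the Pdk4SMKO libraries in replicate 1, with 125, 58 and 35 counts of C1qa. For Cd68 the Pdk4SMKO counts were 155, 63 and 60, below the 568, 629 and 281 of Pdk4fl/fl. A link of these markers to Sema4d or Sema4f was not tested. Sema4a, an immune cell semaphorin, was the only class 4 member called lower, from 15, 18 and 14 to 9, 2 and 6 counts (-1.90 ± 0.49, adjusted p = 0.00494), counts close to the floor.

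Classes 5, 6 and 7 hold fewer detected genes. Sema5a, a transmembrane ligand of plexin A3 and plexin B3 that carries thrombospondin repeats, rose from 9.33, 10.5 and 10.5 to 34.4, 43.2 and 37.5 CPM (1.92 ± 0.15, adjusted p = 1.2e-06). Sema6d, a class 6 ligand of plexin A1 that acts in heart development, had the largest log2 fold change of the 63 genes: 9, 9 and 3 counts became 358, 763 and 640 counts, or 0.600, 0.494 and 0.227 CPM became 15.7, 38.0 and 31.4 CPM (5.95 ± 0.44, adjusted p = 7.8e-07). Here Pdk4SMKO replicate 1 was the lowest of its genotype. Sema6a, a ligand of A plexins on neurons and endothelium, fell from 3.80, 7.25 and 2.65 to 1.10, 1.29 and 1.23 CPM (-1.93 ± 0.40, adjusted p = 0.00121), and its share of the class 6 FPKM went from 36.7 ± 7.84% to 3.67% as that of Sema6d went from 3.11 ± 1.35% to 67.2%. Sema6b and Sema6c overlapped between genotypes, and so did Sema7a, an integrin ligand with 16, 28 and 10 against 73, 30 and 27 counts (0.82 ± 0.45, adjusted p = 0.116). Plxnc1, the plexin of Sema7a, had 2, 1 and 7 against 13, 9 and 6 counts and was not tested.

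To show what lies before the start of the most changed gene, the 250 bases upstream of the first of 2 Sema6d starts in RefSeq are given, at chr2:124089719-124089968 of the GRCm38.p6 assembly, plus strand. In this and the other promoters below, capitals mark the GC box, GGGCGG, on either strand (CCGCCC when read on the other).
Sema6d promoter: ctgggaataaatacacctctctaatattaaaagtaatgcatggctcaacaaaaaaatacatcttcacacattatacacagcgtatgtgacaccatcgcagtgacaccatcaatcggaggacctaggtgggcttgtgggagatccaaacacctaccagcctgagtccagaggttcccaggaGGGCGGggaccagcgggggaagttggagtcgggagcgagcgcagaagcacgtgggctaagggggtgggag

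This stretch holds 1 GC box, and the next paragraphs show promoters with none to 5. Across the 54 of the 63 genes with a RefSeq promoter there were 70 such windows. A GC box lay in 68.6% of these, against 32.7% of all 32851 promoter windows of the mouse table, noncoding genes included. It lay in 63.0% of the 27 windows of 22 higher genes and in 83.3% of the 12 windows of 7 lower genes. Genes with several starts count more than once, so these windows are not independent. The median GC content of the 70 windows was 64.2%, against 52.4% over all windows. The CCAAT box (CCAAT) was in 27.1% of the member windows and 33.8% of all, the TATA box (TATAAA) in 2.86% and 12.4%, the AP-1 site (TGANTCA) in 4.29% and 6.75%, the E-box (CACGTG) in 5.71% and 6.02%, and the TEAD site (GGAATG) in 10.0% and 12.6%, each read on both strands, and no motif searched contains another.

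The A ephrins split within one gene cluster. Efna1, Efna3 and Efna4 sit in a row on the minus strand of chromosome 3 (92867095 to 92875005, 92909250 to 92918314 and 92930134 to 92934772 on the C57BL/6NJ assembly), with 34.2 and 11.8 kb between them. Efna1, an inflammation-inducible ligand of EphA2, fell from 50.1, 50.2 and 48.9 to 6.72, 19.5 and 16.7 CPM (-1.80 ± 0.31, adjusted p = 0.00035). Efna3 fell from 7.20, 6.20 and 4.54 to 1.19, 1.29 and 1.23 CPM (-2.27 ± 0.29, adjusted p = 3.8e-05). Efna4, next to it, rose from 1.40, 1.48 and 1.44 to 8.39, 12.1 and 10.2 CPM (2.82 ± 0.25, adjusted p = 2.8e-06). In none of the 3 genes did the genotypes overlap, which was also so for 81.8% of all genes tested. The directions held in all alternative fits. An antisense gene inside Efna3, Gm15998, had 4, 4 and 0 against 64, 43 and 60 counts, opposite in direction to Efna3, and without knowledge of strand use the reads of such a pair cannot be told apart.

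The upstream 250 bases of the 3 neighbours are shown because the genes moved apart, at chr3:89280952-89281201 for Efna1 and chr3:89322940-89323189 for Efna3 (the first of 2 starts each) and chr3:89338029-89338278 for Efna4, all GRCm38.p6, minus strand, read in the direction of the gene.
Efna1 promoter: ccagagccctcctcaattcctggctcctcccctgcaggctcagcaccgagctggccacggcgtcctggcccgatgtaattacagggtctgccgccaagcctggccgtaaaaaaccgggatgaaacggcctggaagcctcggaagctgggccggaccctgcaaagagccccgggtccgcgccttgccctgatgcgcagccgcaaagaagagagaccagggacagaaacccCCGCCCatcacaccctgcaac
Efna3 promoter: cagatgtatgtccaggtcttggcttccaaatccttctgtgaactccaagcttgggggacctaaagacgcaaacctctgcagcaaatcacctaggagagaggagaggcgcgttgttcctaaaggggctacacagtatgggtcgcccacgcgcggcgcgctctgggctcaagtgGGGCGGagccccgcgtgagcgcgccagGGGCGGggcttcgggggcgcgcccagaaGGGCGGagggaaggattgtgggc
Efna4 promoter: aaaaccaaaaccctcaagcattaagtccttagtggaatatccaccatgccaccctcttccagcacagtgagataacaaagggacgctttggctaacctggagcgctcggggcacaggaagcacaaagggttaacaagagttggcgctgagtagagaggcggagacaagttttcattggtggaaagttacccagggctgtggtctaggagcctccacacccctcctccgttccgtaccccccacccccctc

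Efna1 has 1 GC box here and Efna3 has 3, while Efna4 has none and a GC content of 54.4%, below the 64.8% and 63.6% of the others. Whether these features bear on the directions was not tested. Of the other A ephrins, Efna5, the most counted of them, stood at 57.1, 50.6 and 51.4 against 37.3, 51.5 and 51.1 CPM and was not called (-0.19 ± 0.15, adjusted p = 0.273), nor was Efna2 (-0.83 ± 0.34, adjusted p = 0.0468), which passed the fold limit without Pdk4fl/fl replicate 3 (-1.11, adjusted p = 0.00638). The summed A ephrin level went from 52.0 ± 2.17 to 29.1 ± 7.51 FPKM (SD, n = 3), Efna1 from 64.7 ± 1.86% to 31.8% of it and Efna4 from 1.73 ± 0.09% to 22.4%.

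With TMM scaling, the EphA receptors changed in makeup more than in sum. Together they were at 33.2 ± 9.31 FPKM in Pdk4fl/fl and 33.6 ± 2.96 FPKM in Pdk4SMKO cells (SD, n = 3). These sums rest on the scaling: with library totals alone the log2 fold change of Epha2, the bulk of the Pdk4fl/fl sum, was -0.16. Shares within a library do not depend on it. Epha2, the main receptor of ephrin-A1, overlapped between genotypes at 166, 175 and 98.4 against 114, 74.1 and 70.7 CPM, a log2 fold change of -0.76 ± 0.24 (adjusted p = 0.0138) that fell short of the fold limit, though it passed it (-1.01) without Pdk4SMKO replicate 1. Epha4, which binds ephrins of both classes, rose from 10.9, 9.22 and 7.42 to 79.8, 107 and 113 CPM (3.44 ± 0.19, adjusted p = 1.4e-07), and Epha3 rose from 8, 11 and 13 to 156, 175 and 165 counts (3.49 ± 0.31, adjusted p = 2.9e-06). Epha2 thus held 94.1 ± 0.66% of the EphA FPKM in Pdk4fl/fl and 54.3% in Pdk4SMKO cells, and Epha4 3.53 ± 0.60% and 37.5%. Epha1 was also higher (15, 20 and 7 against 71, 49 and 38 counts, 1.47 ± 0.39, adjusted p = 0.00524), but its end overlaps Zyx, which is on the other strand with 4248 to 13426 counts per library. Epha7, at 57, 90 and 31 against 172, 114 and 161 counts, was just under the fold limit (0.92 ± 0.29, adjusted p = 0.0149) and passed it without Pdk4fl/fl replicate 2 (1.20) or Pdk4SMKO replicate 2 (1.06).

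The EphB receptors likewise changed in makeup. Their sum was 36.3 ± 4.60 FPKM in Pdk4fl/fl and 36.0 ± 8.40 FPKM in Pdk4SMKO cells (SD, n = 3), values that also rest on TMM scaling. Ephb4, the ephrin-B2 receptor known from veins, fell from 161, 168 and 133 to 57.1, 69.8 and 55.3 CPM (-1.34 ± 0.14, adjusted p = 1.1e-05), a call that missed the fold limit at library totals alone (-0.74). Ephb6, a receptor without kinase activity, rose from 4.47, 1.92 and 2.19 to 23.5, 61.2 and 49.1 CPM (3.97 ± 0.41, adjusted p = 9.1e-06), with Pdk4SMKO replicate 1 the lowest of its genotype. Ephb3, which keeps intestinal cells in place, rose from 9.60, 9.99 and 5.90 to 58.8, 82.6 and 62.5 CPM (2.99 ± 0.22, adjusted p = 8.1e-07). Ephb2, a paralog of it, fell from 13.7, 15.5 and 11.5 to 2.59, 5.57 and 2.94 CPM (-1.88 ± 0.29, adjusted p = 0.00018). In shares of the summed EphB FPKM, Ephb4 went from 91.3 ± 1.06% to 37.1 ± 5.78%, Ephb3 from 3.67 ± 0.56% to 30.3% and Ephb6 from 2.08 ± 0.91% to 31.8%, so 1 dominant receptor in Pdk4fl/fl cells stood beside 2 others at like levels in Pdk4SMKO cells.

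The promoters of the receptor that lost share and of one that gained it are given, at chr5:137349859-137350108 for Ephb4 and chr6:41605261-41605510 for Ephb6, both GRCm38.p6 and plus strand.
Ephb4 promoter: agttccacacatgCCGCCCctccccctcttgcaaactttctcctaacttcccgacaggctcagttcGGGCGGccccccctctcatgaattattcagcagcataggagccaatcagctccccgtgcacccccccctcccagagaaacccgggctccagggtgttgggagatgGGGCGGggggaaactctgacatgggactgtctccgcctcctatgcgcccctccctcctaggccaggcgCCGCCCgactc
Ephb6 promoter: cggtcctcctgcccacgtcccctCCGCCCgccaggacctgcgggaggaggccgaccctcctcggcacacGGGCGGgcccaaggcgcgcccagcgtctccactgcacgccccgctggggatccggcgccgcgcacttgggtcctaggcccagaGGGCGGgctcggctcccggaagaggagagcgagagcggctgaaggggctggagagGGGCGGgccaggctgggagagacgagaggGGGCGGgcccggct

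Ephb4 has 4 GC boxes in this window and Ephb6 has 5. A role of these motifs in the changes was not tested. The 3 B ephrins, ligands of these receptors, were all higher, against 32.8% of all genes tested. Efnb2, the arterial ephrin, rose from 130, 122 and 79.8 to 288, 324 and 318 CPM (1.49 ± 0.18, adjusted p = 2.5e-05), which made it the second most abundant guidance gene per length in Pdk4SMKO cells at 71.7 ± 4.43 FPKM (SD, n = 3). X-linked Efnb1 rose from 15, 13.7 and 12.9 to 39.4, 37.3 and 33.8 CPM (1.41 ± 0.14, adjusted p = 6.7e-06), and the part of the Xist difference in it was not tested. Efnb3 had 4, 4 and 2 against 21, 16 and 24 counts (2.13 ± 0.47, adjusted p = 0.00176). Efnb2 held 85.9 ± 2.49% and 86.7% of the B ephrin FPKM, so this family grew without a change of makeup of the size seen in its receptors.

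**Figure D3:**
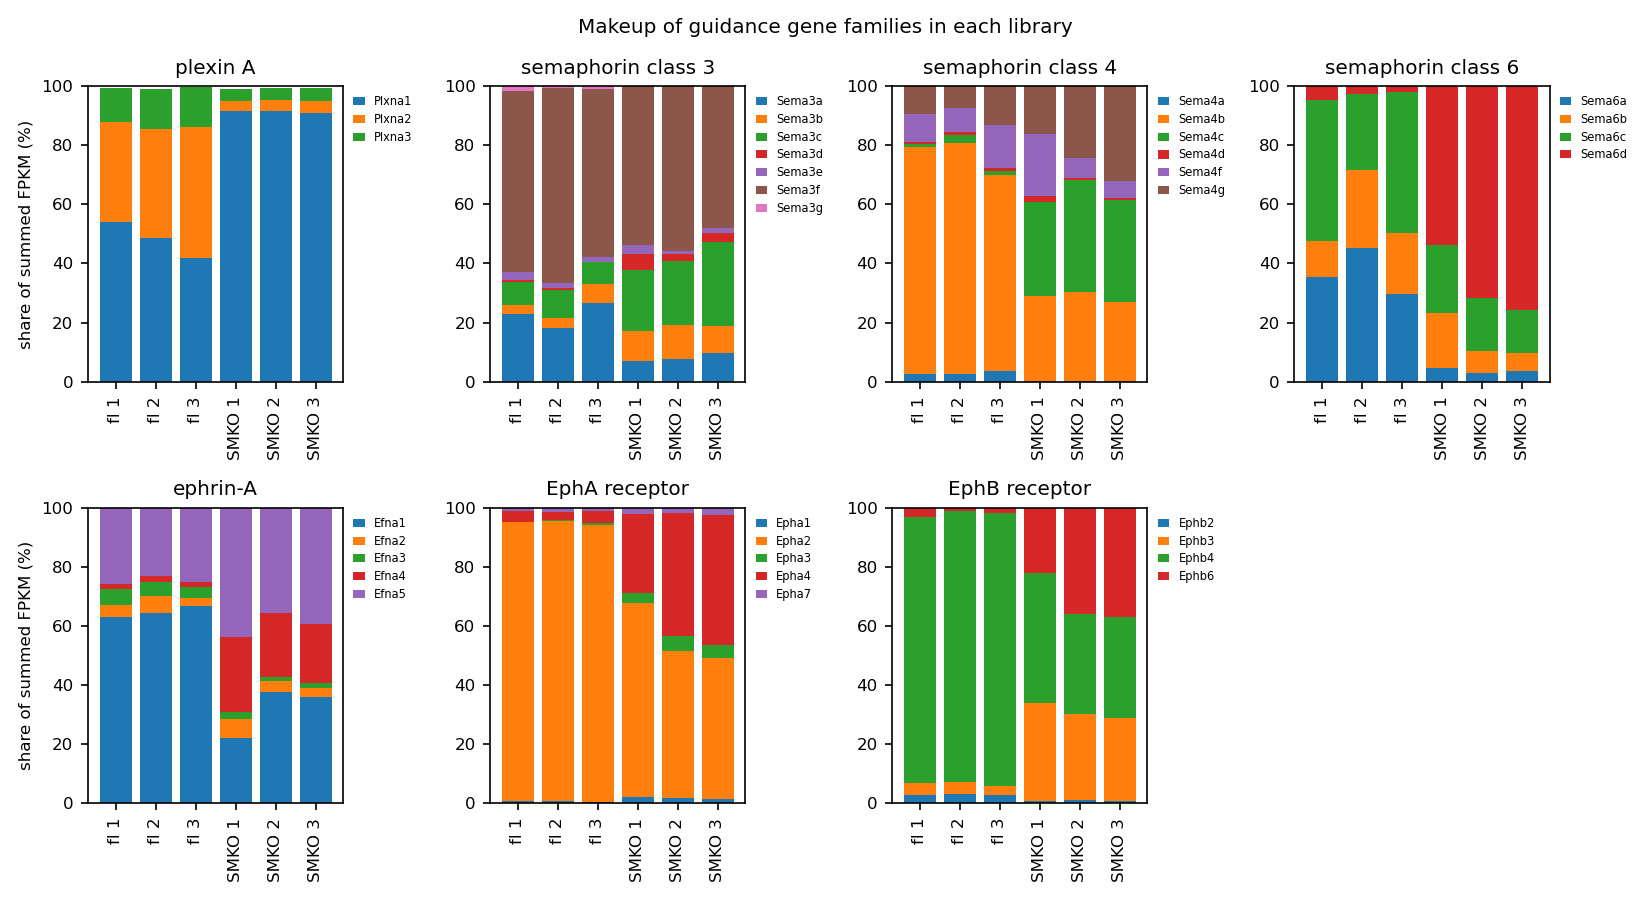
Share of each gene in the summed FPKM of its family (percent), one bar per library, for 7 families; genes under 1% in every library are not drawn. Ephb4 fills 90.1% to 92.2% of the EphB bar in Pdk4fl/fl libraries and 33.6% to 43.8% in Pdk4SMKO libraries, and Plxna1 fills 41.7% to 53.9% and 91.0% to 91.6% of the A plexin bar.

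Neither tested Slit reached the fold limit, while their receptor Robo1 did. Slit3, the Slit best represented in these cells, was at 127, 116 and 86.6 against 43.6, 114 and 64.0 CPM with overlapping genotypes (-0.57 ± 0.30, adjusted p = 0.102), and without Pdk4SMKO replicate 2, the highest of its genotype, it was called lower (-1.02, adjusted p = 0.00208). Slit2 was at 78.7, 63.5 and 50.9 against 38.5, 46.0 and 34.6 CPM (-0.70 ± 0.18, adjusted p = 0.00431), below the fold limit though without overlap. Robo1 rose from 26, 14 and 13 to 357, 288 and 303 counts, or from 1.73, 0.769 and 0.984 to 15.7, 14.3 and 14.9 CPM (3.69 ± 0.28, adjusted p = 1.1e-06), with closely grouped Pdk4SMKO libraries. Robo2 and Robo3 had 0 counts in every Pdk4fl/fl library and at most 15 in Pdk4SMKO libraries, and the endothelial receptor Robo4 was at 0 in all 6. Slit1, the brain Slit, had at most 14 counts.

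Among the netrins and their receptors, Ntn1 was called lower and Unc5b higher. Ntn1 fell from 82.0, 72.0 and 58.7 to 25.3, 48 and 31.5 CPM (-1.02 ± 0.22, adjusted p = 0.00182), at the edge of the fold limit: leaving out 1 library gave between -1.31 and -0.82, upper-quartile factors gave -0.81, and library totals alone gave -0.43 (adjusted p = 0.108), which ends the call. Unc5b, the netrin receptor of vessels, rose from 84.4, 78.4 and 54.6 to 281, 244 and 202 CPM (1.74 ± 0.19, adjusted p = 1.1e-05), or from 12.4 ± 2.70 to 41.4 ± 6.77 FPKM (SD, n = 3). It was the sole well counted Unc5 receptor: Unc5a had 0, 1 and 0 against 14, 10 and 5 counts, Unc5c 2, 0 and 0 against 18, 14 and 8, and Unc5d at most 1. Of the other netrin receptors, Dcc had 2 counts or fewer in every library, and Neo1, which codes for neogenin, was well counted at 5663, 6579 and 3590 against 4658, 4260 and 4255 counts but was not called (-0.69 ± 0.14, adjusted p = 0.00105). Ntn5 had 0 or 1 count.

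Ranked by level per length, the leading genes differed between genotypes. In Pdk4fl/fl cells the order was Plxnb2 (58.7 ± 13.5 FPKM), Efna1 (33.6 ± 0.49), Ephb4 (33.2 ± 3.99), Epha2 (31.3 ± 8.95), Efnb2 (25.6 ± 6.25) and Plxnd1 (17.0 ± 3.07), where the ranges of mean ± SD overlapped between each neighbouring pair from Efna1 to Plxnd1 and Plxnb2 lay above them all. In Pdk4SMKO cells it was Plxnb2 (168 ± 12.3 FPKM), Efnb2 (71.7 ± 4.43), Plxna1 (45.4 ± 3.43), Unc5b (41.4 ± 6.77), Sema3f (36.1 ± 5.83) and Epha2 (18.4 ± 5.11), where the range of Unc5b overlapped those of Plxna1 and Sema3f and no other neighbouring pair overlapped. The sum over the 63 genes was 298 ± 50.9 FPKM and 567 ± 36.7 FPKM (SD, n = 3).

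**Figure D4:**
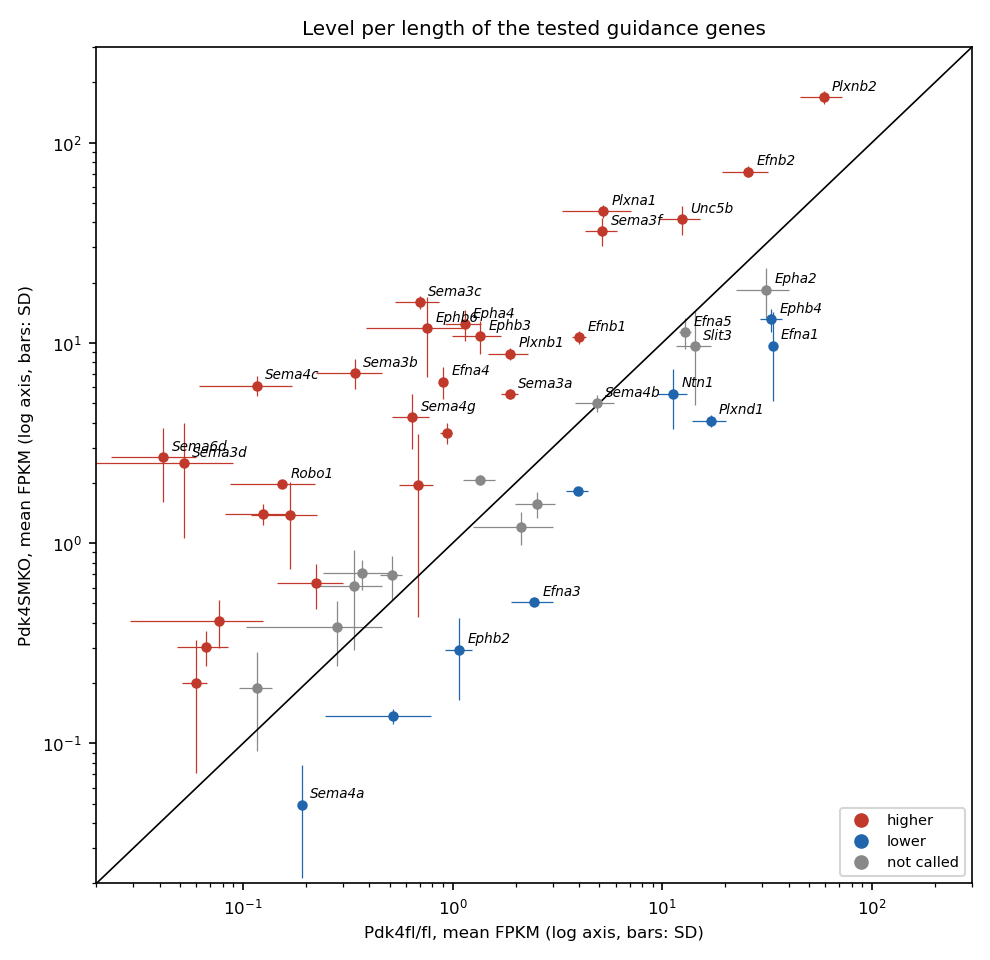
Mean FPKM of the tested guidance genes in Pdk4SMKO (vertical, log axis) against Pdk4fl/fl cells (horizontal, log axis), with SD bars (n = 3), the line of equal level, and colours for genes called higher, called lower or not called. Plxnb2 is at the top in both genotypes, and Efna1, Ephb4 and Plxnd1 lie below the line among the well expressed genes.

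The partners inside and beside the receptors were taken from lists of genes in these pathways. Of 23 co-receptors and other ligands, 15 were tested, 10 were higher (66.7%, against 32.8% of all genes tested) and 2 lower (13.3%, against 26.5%), with a median log2 fold change of 2.00 against 0.12 over all genes tested. Dag1, which codes for the dystroglycan that binds Slit, had 621, 615 and 344 against 10085, 8919 and 8057 counts (3.66 ± 0.18, adjusted p = 5.9e-08), and Flrt2, an Unc5 ligand, had 33, 31 and 26 against 582, 507 and 636 counts (3.81 ± 0.20, adjusted p = 8.3e-08). Flrt3, its paralog and a Robo1 partner, was lower at 51, 46 and 42 against 21, 4 and 5 counts (-2.68 ± 0.52, adjusted p = 0.00079). The neogenin ligands Rgma and Rgmb were both higher, by 2.66 ± 0.28 (adjusted p = 9.8e-06) and 3.57 ± 0.24 (adjusted p = 4.0e-07) on the log2 scale.

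Of 62 intracellular mediators, 55 were in the table under that name and 53 were tested, with 18 higher (34.0%), 11 lower (20.8%) and 24 not called (median log2 fold change 0.43). These shares are near the 32.8% and 26.5% of all genes tested, so the counts set the mediators apart in neither direction. Among the higher were Tiam1, a Rac exchange factor that binds EphA2 and EphB receptors (46, 32 and 14 against 1000, 806 and 642 counts, 4.28 ± 0.30, adjusted p = 6.3e-07), Rnd3, a GTPase that opposes RhoA (1.95 ± 0.12, adjusted p = 1.9e-07), Rock2, the RhoA kinase (1.96 ± 0.13, adjusted p = 3.0e-07), and Adam10, which cleaves ephrins (2.24 ± 0.12, adjusted p = 8.7e-08). Among the lower were Vav3, an exchange factor below Eph receptors (364, 335 and 193 against 9, 0 and 0 counts), Ngef, the EphA exchange factor ephexin (66, 109 and 43 against 5, 8 and 13 counts, -3.44 ± 0.44, adjusted p = 4.1e-05), Fyn, a kinase of the plexin A pathway (-2.11 ± 0.24, adjusted p = 2.1e-05), and the actin regulators Cdc42 (-2.03 ± 0.15, adjusted p = 9.3e-07) and Cfl1 (-1.98 ± 0.13, adjusted p = 3.0e-07). Rhoa (-0.82 ± 0.12, adjusted p = 1.2e-04) and Rac1 (-0.85 ± 0.11, adjusted p = 6.2e-05) were lower without overlap but short of the fold limit. Rock1 overlapped between genotypes (-0.02 ± 0.12, adjusted p = 0.873).

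**Figure D5:**
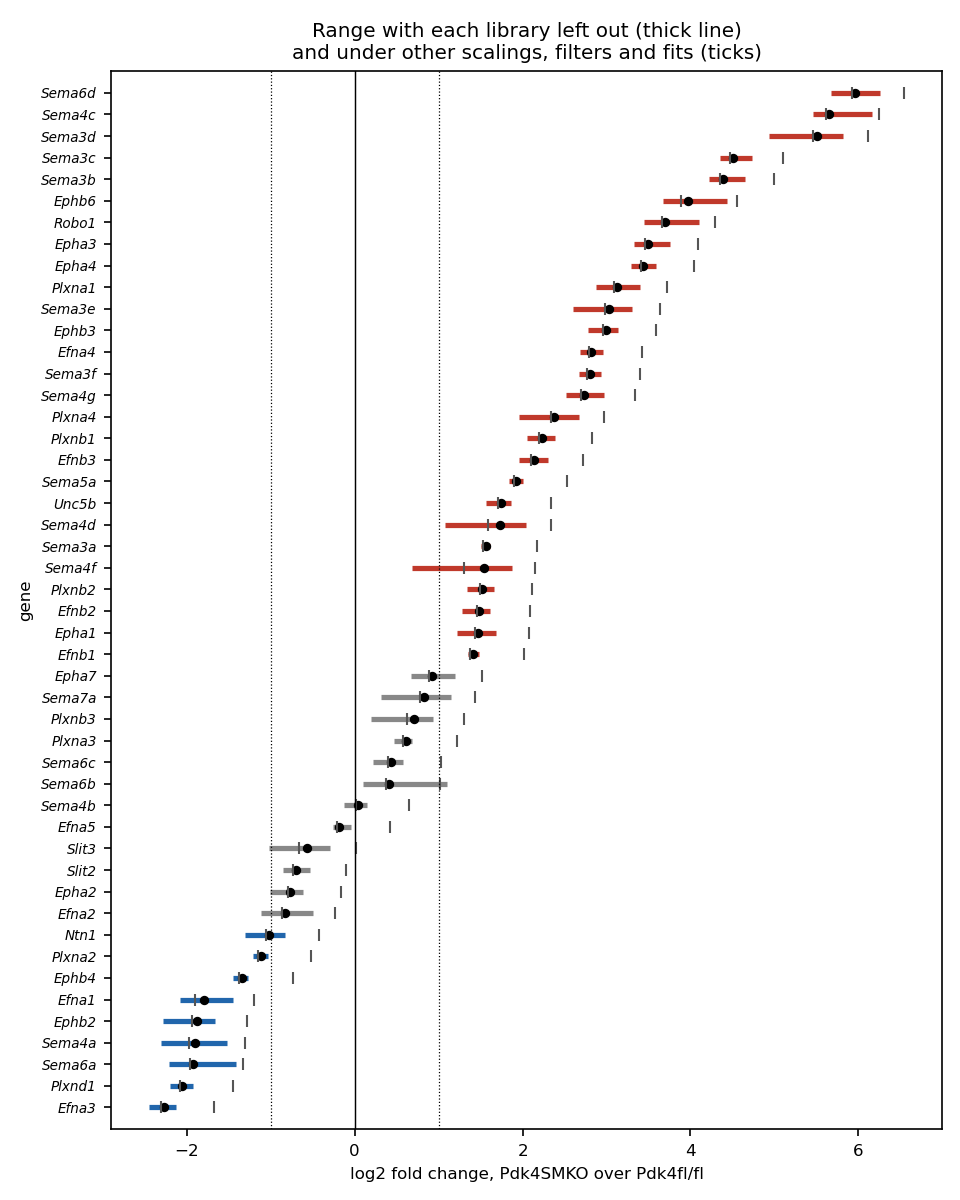
Log2 fold change of each of the 48 tested guidance genes (black dot), the range when each library is left out in turn (thick line, coloured by call) and the lowest and highest values under other scalings, filters and fits (ticks). The right-hand ticks come mostly from library totals without TMM, and Sema4f shows the widest drop, to 0.68.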

How the data were processed

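RNA from 6 MASMC cultures, 3 of each genotype, was sequenced as paired-end reads. The authors deposited raw, unnormalized counts of reads on 41721 genes in 1 table, with the length and position of each gene. The submitters' processing notes name the build GRCm39, while the identifiers belong to the annotation of the C57BL/6NJ strain assembly, whose coordinates are given here. The aligner, the counting program and the use of strand are not given in the sources used here, and the study and the labels name different library kits (NEBNext Ultra and SMARTER).

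In edgeR 4.0.16 (R 4.3.3), counts passed filterByExpr, were scaled by TMM and entered the quasi-likelihood test with genotype as the only term. Benjamini-Hochberg adjustment ran over 14085 genes. A call needed both an adjusted p below 0.05 and a change of 2-fold or more, after the study, which used DESeq2 with these sizes of limit and Benjamini-Hochberg correction but does not say whether its p is the corrected one. CPM and FPKM were computed from the deposited counts, the TMM factors and the deposited gene lengths. Summed FPKM and its changes between genotypes thus rest on TMM, whereas shares within a library do not. The symbol rule missed genes that the table lists without a name. Genes with values in every library were the most abundant member of each family, the 10 largest changes in each direction without overlap and at 1 CPM or more, and members called against the majority of their family. Others were added after their values were seen. The members and the lists were chosen with earlier results of these data known. Promoters are the 250 bases before RefSeq transcript starts (GRCm38.p6), matched by symbol, and Sema6a, on which no sequence is shown, and 8 other members had none. Fits were also run on simulated counts with few changed genes, balanced in direction. That run cannot test the scaling where many genes differ, as here. As alternatives, scaling was done by RLE, by upper quartiles or by totals, DESeq2 1.42.0 or glmTreat replaced the test, filters and thresholds were varied, only protein-coding genes were kept, replicate numbers entered as a block, and each library was left out.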

Additional observations from a re-analysis of the deposited data

How the results depend on the processing

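Under the 17 alternatives the number of guidance genes called lower was between 6 and 12 (9 reported) and the number called higher between 20 and 32 (27 reported), all within 1.5 times the reported counts. Leaving out 1 library gave 8 to 10 lower and 25 to 30 higher. Library totals without TMM moved the median log2 fold change of all genes from 0.12 to 0.72 and that of the guidance genes from 1.50 to 2.10, with 6 lower and 32 higher guidance genes and 2390 lower and 6184 higher genes in all. Upper-quartile factors moved the median of all genes to 0.33. Of the 36 calls, 36 were kept with DESeq2 and RLE factors, 34 with upper-quartile factors, 33 with library totals, 31 with glmTreat and 26 where every library had to hold at least 10 counts, a limit that leaves 38 of the 48 genes. Ntn1 lost its call in 8 alternatives, Plxna2 in 3, and Sema4d and Sema4f in 3 each. The sign turned for genes without a call: Slit3 to 0.0202 with library totals, Efna5 to 0.0239 with upper-quartile factors and 0.42 with library totals, and Sema4b, whose range with 1 library left out was -0.13 to 0.148, to -0.13 without Pdk4fl/fl replicate 3 and -0.02 without Pdk4SMKO replicate 2. The replicate block gave 9 lower and 27 higher with all 36 calls kept, and 3704 lower genes in all. Libraries of the same number correlated at 0.05, 0.09 and 0.23 in their deviations from the genotype means, and the number is otherwise only a name. Low counts limit Sema4a, Sema4d, Efnb3 and the genes not tested.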

Other observations

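A netrin outside the symbol rule changed more than any gene within it. The row MGP_C57BL6NJ_G0018055 has no symbol but is described as netrin 4 (Ntn4, a laminin-like protein of basement membranes), and was looked at after its values were seen. It had 1, 1 and 9 counts in Pdk4fl/fl and 1495, 1168 and 1232 counts in Pdk4SMKO libraries, a log2 fold change of 7.96 ± 0.41 (SE, edgeR, adjusted p = 8.0e-08). Per length it stood at 31.0 ± 1.94 FPKM (SD, n = 3) in Pdk4SMKO cells, above Ntn1 at 5.57 ± 1.87 FPKM. A second unnamed row, described as Epha10, had 3, 1 and 2 against 0, 0 and 0 counts, at or under the floor.

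Ntng2, a lipid-anchored netrin-like ligand from the co-receptor list, had 0 counts in every Pdk4fl/fl library and 51, 41 and 30 in Pdk4SMKO libraries. Grip1, the scaffold that binds the tails of B ephrins, had 0 counts in every Pdk4fl/fl library and 50, 21 and 24 in Pdk4SMKO libraries. Both were detected in Pdk4SMKO cultures alone at this depth.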
